A study of Homo sapiens with 12 samples.

Results

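Antisense long noncoding RNA genes are transcription units annotated on the strand opposite to another gene, and by convention their symbols carry the name of that sense gene followed by -AS. They were followed here in T47D cells, an established human breast cancer line that expresses the estrogen receptor. Members were chosen by their symbol, which had to end in -AS with or without a number, and by a measured level: a mean of at least 1 CPM (reads of the gene per 1000000 reads counted to genes) over the 12 libraries. Of the 25370 gene rows in the table, 736 carried such a symbol, and 359 of these reached the minimum. The other 377 rows lay below it, and 104 of them had no count in any library. The members just inside the minimum were OGFR-AS1 at 1.01 CPM and PAPPA-AS1 at 1.03 CPM, and the rows just outside were LMCD1-AS1 at 0.998 CPM and PRKAG2-AS1 at 0.974 CPM. Because the mean was taken over all groups, the level of a member and the number of members are descriptions of the rule and not findings.

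The study compared 4 groups of 3 libraries, with replicates lettered a to c. All cells were kept in medium with 5% charcoal-stripped serum for 48 h and then without serum for 24 h. They then received vehicle, 10 nM anastrozole (an inhibitor of aromatase, the enzyme that makes estrogens from androgens), 0.1 nM estradiol (E2), or 10 nM anastrozole together with 0.1 nM E2. The labels give a treatment of 12 h and the study's methods 24 h, so the duration is uncertain. Nothing in the labels says that the replicates came from separate cultures, so p-values measure only the spread between these libraries, which may be technical. All groups share 1 cell line, hormone-depleted medium and absence of serum.

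Antisense transcripts can arise from the same promoter region as their sense gene and run away from it, or can be transcribed back across its exons or introns. Some act on their neighbour by interfering with its transcription, by recruiting chromatin regulators or by pairing with its RNA, and others act elsewhere in the cell or have no known activity. In breast cancer cells, estrogen receptor alpha binds DNA at estrogen response elements, a palindrome of paired half-sites, and many noncoding genes lie near its binding sites.

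The promoters of the antisense genes that passed the test in 2 or more of the 5 comparisons made here are shown first, since these genes recur in the values below (the comparisons share libraries, so passing in several is no separate result), together with that of ITPK1-AS1, the antisense gene with the lowest fold change with anastrozole. Each is the RefSeq window of 300 bases, from 250 before to 50 after the annotated start, in GRCh38.p14, written 5′ to 3′ on the strand of the antisense gene. Capitals mark matches to the estrogen response element half-site GGTCA on either strand (TGACC on the other).
ARHGEF26-AS1, chr3:154121161-154121460, minus strand: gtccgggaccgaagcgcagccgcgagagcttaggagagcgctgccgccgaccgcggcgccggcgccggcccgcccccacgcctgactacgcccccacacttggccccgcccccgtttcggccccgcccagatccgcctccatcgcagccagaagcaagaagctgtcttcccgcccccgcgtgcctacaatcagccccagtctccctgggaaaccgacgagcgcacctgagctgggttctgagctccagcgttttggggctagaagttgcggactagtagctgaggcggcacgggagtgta
EPB41L4A-AS1, chr5:112160276-112160575, plus strand: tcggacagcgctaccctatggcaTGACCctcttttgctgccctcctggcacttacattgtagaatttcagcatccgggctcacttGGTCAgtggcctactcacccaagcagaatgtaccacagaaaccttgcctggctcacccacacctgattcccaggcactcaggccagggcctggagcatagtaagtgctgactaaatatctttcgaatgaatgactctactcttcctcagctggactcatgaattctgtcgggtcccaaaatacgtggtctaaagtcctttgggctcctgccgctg
HMMR-AS1, chr5:163494009-163494308, minus strand: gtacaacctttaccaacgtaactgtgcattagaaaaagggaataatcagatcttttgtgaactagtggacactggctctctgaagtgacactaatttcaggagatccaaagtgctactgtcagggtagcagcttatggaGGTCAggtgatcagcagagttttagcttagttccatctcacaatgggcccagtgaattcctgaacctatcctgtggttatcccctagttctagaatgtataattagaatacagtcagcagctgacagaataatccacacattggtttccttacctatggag
IDI2-AS1, chr10:1022387-1022686, plus strand: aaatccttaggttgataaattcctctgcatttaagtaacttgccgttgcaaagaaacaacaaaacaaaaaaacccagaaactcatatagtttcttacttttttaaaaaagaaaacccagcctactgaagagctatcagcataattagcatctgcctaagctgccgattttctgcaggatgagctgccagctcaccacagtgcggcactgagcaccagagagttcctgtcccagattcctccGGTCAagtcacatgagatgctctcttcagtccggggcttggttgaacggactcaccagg
MMP24-AS1 (MMP24OS in RefSeq), chr20:35278073-35278372, minus strand: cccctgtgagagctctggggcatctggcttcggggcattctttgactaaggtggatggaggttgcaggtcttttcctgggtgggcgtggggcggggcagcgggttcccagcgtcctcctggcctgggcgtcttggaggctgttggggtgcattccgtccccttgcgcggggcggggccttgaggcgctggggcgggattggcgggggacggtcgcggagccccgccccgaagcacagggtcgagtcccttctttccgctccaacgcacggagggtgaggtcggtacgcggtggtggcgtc
NDUFB2-AS1, chr7:140697028-140697327, minus strand: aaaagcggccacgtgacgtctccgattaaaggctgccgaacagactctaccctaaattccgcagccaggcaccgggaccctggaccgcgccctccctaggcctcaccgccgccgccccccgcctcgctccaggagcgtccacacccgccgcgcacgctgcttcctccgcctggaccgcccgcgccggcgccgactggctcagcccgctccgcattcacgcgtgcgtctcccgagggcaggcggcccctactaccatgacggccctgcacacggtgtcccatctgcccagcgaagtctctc
RUSC1-AS1, chr1:155324127-155324426, minus strand: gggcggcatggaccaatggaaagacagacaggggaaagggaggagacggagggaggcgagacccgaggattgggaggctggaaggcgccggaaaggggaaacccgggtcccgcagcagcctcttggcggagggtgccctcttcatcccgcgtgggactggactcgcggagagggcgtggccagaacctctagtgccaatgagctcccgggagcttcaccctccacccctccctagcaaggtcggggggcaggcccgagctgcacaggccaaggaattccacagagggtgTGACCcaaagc
ITPK1-AS1, chr14:93067202-93067501, plus strand: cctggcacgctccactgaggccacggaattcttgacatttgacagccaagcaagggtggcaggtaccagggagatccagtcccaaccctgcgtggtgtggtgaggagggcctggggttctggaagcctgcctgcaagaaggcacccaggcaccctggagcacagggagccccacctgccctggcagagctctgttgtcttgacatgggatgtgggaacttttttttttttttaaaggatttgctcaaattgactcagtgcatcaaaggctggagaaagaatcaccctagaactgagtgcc

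The full palindrome, GGTCANNNTGACC, was in none of these 8 windows. Among the 271 members that matched a RefSeq promoter it occurred in 0, against 0.0659% of all 27305 promoters in the table. EPB41L4A-AS1 held 2 half-sites, and HMMR-AS1, IDI2-AS1 and RUSC1-AS1 held 1 each. A half-site is common: 92 of the 271 members (33.9%) and 37.7% of all promoters had at least 1, and so did 7 of the 23 matched members that passed the test in any comparison. The windows differed widely in base composition, from 42.3% G and C with 1 CG dinucleotide in HMMR-AS1 to 70.3% with 36 in NDUFB2-AS1. The promoters of FAM83H-AS1, GAS5-AS1, KLHL7-AS1 and TNRC6C-AS1 are not shown. A match in such a window is a description and not a binding site, and a missing match says only that these letters are not in these bases.

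The libraries held 9914253 to 17009776 reads counted to genes, with a median of 13538621. At these depths, 3 counts corresponded to 0.176 to 0.303 CPM, which covers counting error only, and all 359 members had counts in every library. The members took 0.499% to 0.519% of the gene counts of a library. The cells carried a luminal profile: 9 luminal markers (among them ESR1, GATA3, FOXA1 and KRT8) summed to 10120 to 11290 CPM, 3 basal markers to 1.77 to 2.88 CPM and 3 endothelial markers to 0.0717 to 0.623 CPM. Of the 4 fibroblast markers, COL1A1 accounted for 80.0 to 99.9 CPM while COL1A2, DCN and LUM stayed at or below 0.505 CPM each. Of the immune markers, CD68 lay at 3.12 to 7.14 CPM while PTPRC and CD3E stayed at or below 0.233 CPM. Of 6 estrogen-induced genes, GREB1 was the one that passed with E2, 0.13 higher on the log2 scale than with vehicle (SE 0.03, adjusted p = 0.00073, edgeR's quasi-likelihood test, Benjamini-Hochberg adjusted over 21132 rows, 3 libraries a group, groups not overlapping). TFF1, PDZK1, AREG and XBP1 had 0.10, 0.16, 0.36 and 0.04 and CCND1 -0.07, with adjusted p = 0.091 to 0.9 in edgeR. With anastrozole GREB1 fell by 0.14 (adjusted p = 0.029) and the other 5 did not pass. With the combination against vehicle GREB1 was 0.18 higher (adjusted p = 4.3e-06) and AREG 0.51 higher (adjusted p = 0.035), and the other 4 did not pass. Whether the counting used strand is not given in the sources used here. If it did not, reads from a gene and its antisense partner cannot be told apart where their exons overlap, and 245 of the 333 pairs whose positions are known share exon bases.

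Most antisense genes were weakly expressed. The median of the 359 members was 5.52 CPM. A mean of 100 CPM or more was reached by 8 members, 103 lay between 10 and 100 CPM, and 248 lay below 10 CPM, of which 62 were below 2 CPM. The 10 highest held 28.6% of all counts to members. A group mean of at least 1 CPM was found in all 4 groups for 340 members, and in 1 group only for 1 member. The spread between replicates grew as the level fell: the median coefficient of variation within a group was 3.40% at 100 CPM or more, 6.52% at 10 to 100 CPM, 13.3% at 2 to 10 CPM and 22.6% at 1 to 2 CPM.

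The highest member was FGD5-AS1 (chr3:14961854-14989931, minus strand, GRCh37, which shares its main chromosomes with the hg19 build of the submitters' alignment), with a mean of 259 CPM and 244 to 283 CPM in single libraries. Its sense gene FGD5, a guanine nucleotide exchange factor best known from blood vessels, lay at 3.40 CPM. LRRC75A-AS1 followed with 249.8 CPM (now SNHG29 in RefSeq, a host gene of small nucleolar RNAs). DSCAM-AS1, an antisense RNA known for high expression in estrogen receptor positive breast cancer, had a mean of 176 CPM (167 to 187 CPM over the libraries) and its sense gene DSCAM, a neuronal adhesion molecule, 38.7 CPM. GATA3-AS1 had 93.0 CPM beside 658 CPM for GATA3, the luminal transcription factor from whose start region it is transcribed in the other direction. The other 6 of the top 10 were UGDH-AS1 (134.7 CPM), FAM83H-AS1 (126 CPM), HNRNPU-AS1 (123 CPM), WAC-AS1 (106 CPM), IDI2-AS1 (101 CPM) and OIP5-AS1 (81.8 CPM), a cytoplasmic RNA also called cyrano. Of these 10, FGD5-AS1, DSCAM-AS1, GATA3-AS1, HNRNPU-AS1 and WAC-AS1 did not pass the test in any of the 5 comparisons, and DSCAM-AS1 with E2 differed from vehicle by 0.05 on the log2 scale (adjusted p = 0.49, edgeR).

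The symbols of this annotation are partly out of date. RefSeq keeps 283 of the 359 symbols, gives another one to 73 and has no unique entry for 3. Of the 73 renamed members, 46 are now called divergent transcripts (-DT), which start near a gene and run away from it, and 6 members in all are listed as protein coding, among them FAM83H-AS1 (now IQANK1) and MMP24-AS1 (now MMP24OS). A sense gene of the same name was in the table for 350 members, which made 343 distinct sense genes since 7 sense genes, such as CTBP1, HIF1A and EPB41L4A, have 2 antisense members each. The 9 members without one include 5 of the 6 HOX cluster transcripts (HOXC13-AS has HOXC13) and JHDM1D-AS1, whose sense gene is now KDM7A. By position in GENCODE 44 on GRCh37, 245 pairs overlap with shared exon bases, 29 overlap without them and 59 start head to head within 5 kb without overlap.

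Compared per kilobase of exon, the antisense gene was usually the weaker of the pair. It exceeded its sense gene in 70 of 333 pairs and was below 10% of it in 63, with a median ratio of 32.1%. The largest excess was that of DLGAP1-AS1, named here after its values were seen, at 1.22 CPM per kb beside 0.00102 CPM per kb for DLGAP1. ZEB1-AS1 lay at 1.33 CPM per kb while ZEB1, a factor that represses epithelial genes, lay at 0.00365 CPM per kb. FGD5-AS1 had 42.9 CPM per kb against 0.420 for FGD5, and DSCAM-AS1 99.8 against 4.5 for DSCAM. IDI2-AS1 had 28.3 CPM per kb against 2.24 for IDI2, an isopentenyl diphosphate isomerase. Levels of the 2 partners rose together only loosely: Spearman's correlation across genes was 0.41 over all 333 pairs, 0.49 for pairs with shared exon bases, 0.29 for overlapping pairs without them and 0.14 for head-to-head pairs. Genes are not independent replicates, and the points of each pair share libraries. The 29 members with at least 50% of their exon bases under exons of the opposite strand had a median of 4.49 CPM per kb, and the 177 members with less than 10% had 1.23 CPM per kb. The part of unstranded counting in this was not tested.

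**Figure D1:**
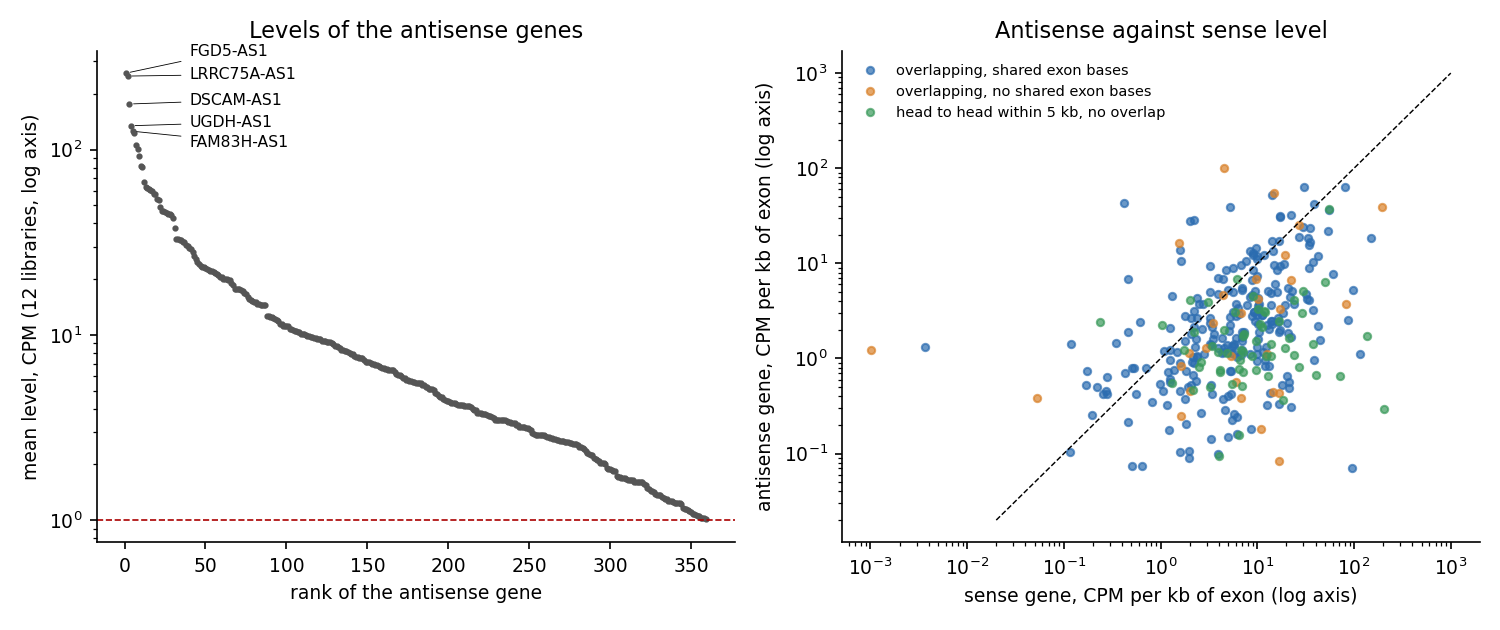
Left, mean level of each of the 359 antisense genes (CPM over 12 libraries, log axis) by rank, with the 5 highest named and the minimum of 1 CPM dashed. Right, antisense against sense level in CPM per kb of exon (both axes log) for 333 pairs, coloured by position, with the dashed line at equality; 70 pairs lie above it.

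Of the 359 members, 31 passed the test (adjusted p under 0.05, edgeR's quasi-likelihood test over all 21132 rows with a count in any library) in at least 1 of the 5 comparisons, and 328 passed in none. There were 44 calls: 20 members were called once and 11 in 2 or more comparisons. In 39 of the 44 calls the 3 libraries of one group all lay above the 3 of the other. The calls were chosen by a test on these same libraries, so this separation is no separate result. Its share among all rows is not given here. In bulk libraries, a gene expressed by fewer cells and a gene with less RNA per cell cannot be told apart. The calls were small and few in each comparison, and each is set beside the share of all rows that passed. Anastrozole against vehicle gave 6 called members (1.67%), against 3.67% of all rows and 5.43% of the 14209 rows of at least 1 CPM. E2 against vehicle gave 18 (5.01%), against 12.0% of all rows and 17.7% of rows of at least 1 CPM. Anastrozole plus E2 against vehicle gave 11 (3.06%), against 5.04% and 7.36%. Anastrozole plus E2 against E2 gave 6 (1.67%), against 6.74% and 9.99%, and anastrozole against E2 gave 3 (0.836%), against 1.33% and 1.96%. These 5 comparisons share control libraries.

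Most members lie at a low level, and in the whole table rows at a low level were called less often. Whether level accounts for the share of members called was not tested. In E2 against vehicle, 3 of the 248 members at 1 to 10 CPM were called (1.21%) and 4.91% of all rows at that level, 11 of 103 members at 10 to 100 CPM (10.7%) and 17.8% of rows, and 4 of 8 members at 100 CPM or more (50%) and 37.4% of rows. In anastrozole plus E2 against vehicle the 10 to 100 CPM band held 7 called members of 103 (6.80%) beside 6.57% of rows, while at 1 to 10 CPM it was 1.21% of members beside 3.82% of rows. In anastrozole plus E2 against E2, 2.91% of members at 10 to 100 CPM were called beside 8.89% of rows. With anastrozole alone the 10 to 100 CPM band held 3 of 103 (2.91%) beside 4.98% of rows. At 1 to 10 CPM the share of members lay below that of rows in all 5 comparisons. At 100 CPM or more, 0% of the 8 members were called with anastrozole, beside 13.1% of rows. In the same band it was 12.5% of members beside 15.6% of rows with the combination against vehicle. Against E2 it was 12.5% beside 27.2% with the combination and 12.5% beside 6.32% with anastrozole. The members' median log2 fold change lay between -0.01 (anastrozole plus E2 against vehicle) and 0.02 (anastrozole against E2), beside 0.00 for all rows tested in each comparison. No called or uncalled member changed more than 2-fold in the 4 comparisons other than anastrozole plus E2 against E2.

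**Figure D2:**
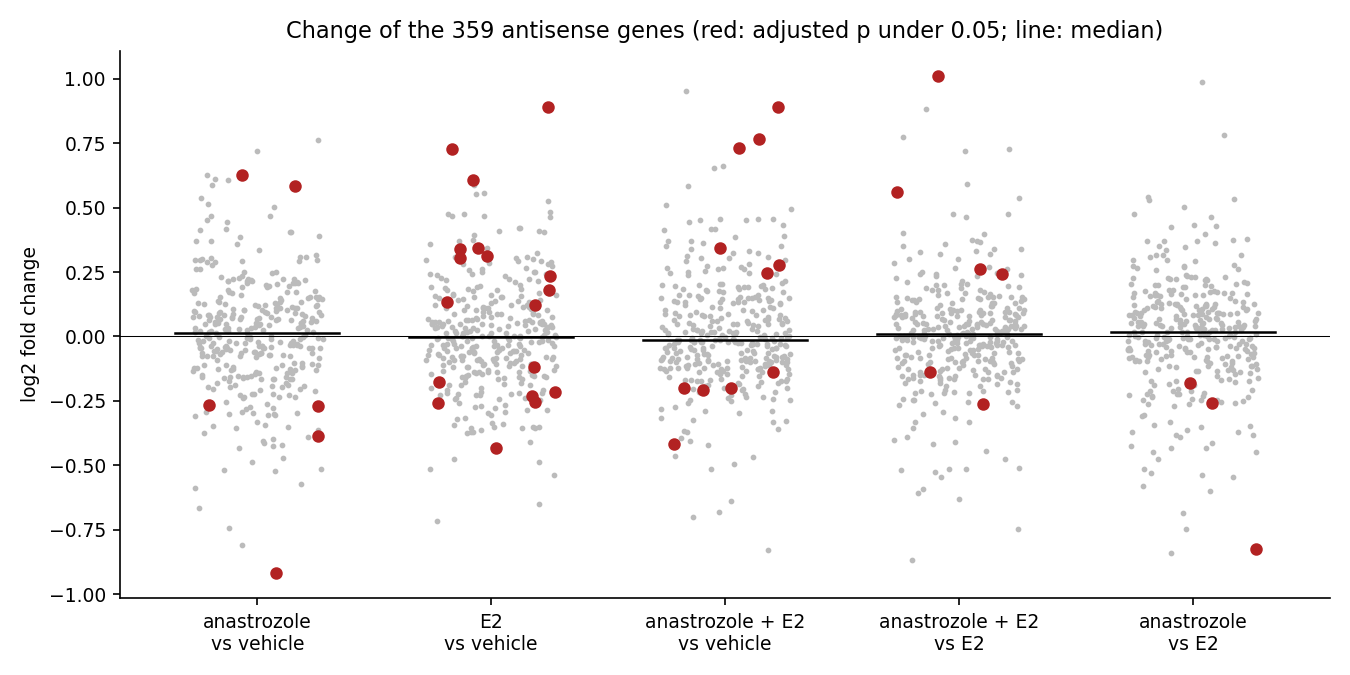
Log2 fold change of each of the 359 antisense genes in the 5 comparisons (vertical axis; horizontal scatter within a column has no meaning), with members of adjusted p under 0.05 in red and the median as a line. The medians lie at 0 within 0.02, and the called members number 6, 18, 11, 6 and 3 from left to right.

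With anastrozole alone, 4 antisense genes fell and 2 rose against vehicle. The rows called higher make up 1.40% of all rows and those called lower 2.27%. ITPK1-AS1 (chr14:93533797-93538497, plus strand, GRCh37) lies within ITPK1, an inositol phosphate kinase gene, on the other strand and shares no exon base with it. Its level was 2.75, 2.74 and 1.79 CPM with vehicle and 1.30, 1.21 and 1.31 CPM with anastrozole, from 34, 36 and 23 reads and 18, 12 and 15 reads respectively. All 3 anastrozole libraries were below all 3 vehicle libraries. The log2 fold change was -0.92 (SE 0.29, adjusted p = 0.045, edgeR), the lowest among the members, and the sense gene ITPK1 had -0.16 (SE 0.05, adjusted p = 0.056). With E2 its libraries read 2.29, 2.13 and 1.81 CPM and with anastrozole plus E2 2.10, 2.50 and 2.50 CPM, and both groups overlapped vehicle. Against E2, the anastrozole libraries were again all lower, but the difference of -0.69 (SE 0.30) had an adjusted p of 0.4. The call against vehicle was kept in 2 of the 6 fits that left out 1 library (without vehicle replicate c and without anastrozole replicate c) and in 5 of 9 alternatives, and it was lost with a GC trend removed.

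RUSC1-AS1 and CTBP1-AS had the highest levels of the genes that fell. RUSC1-AS1 runs against RUSC1, an adaptor protein gene, and had 67.1, 59.3 and 65.5 CPM with vehicle and 53.2, 53.2 and 53.3 CPM with anastrozole. The groups did not overlap, and the log2 fold change was -0.26 (SE 0.06, adjusted p = 0.0029), beside -0.11 (adjusted p = 0.27) for RUSC1. CTBP1-AS shares 20.8% of its exon bases with CTBP1, a transcriptional corepressor. It fell from 50.4, 45.7 and 53.3 CPM to 37.4, 42.2 and 44.7 CPM, by 0.27 on the log2 scale (SE 0.07, adjusted p = 0.0073), and CTBP1 fell by 0.25 (SE 0.05, adjusted p = 0.00057). The CTBP1-AS call was kept in 3 of the 6 fits without a library and lost with a GC trend removed, DESeq2 and limma-voom. NDUFB2-AS1, which runs against a subunit gene of mitochondrial complex I, read 24.8, 17.4 and 20.3 CPM with vehicle and 16.4, 17.3 and 14.1 CPM with anastrozole. The gap between the nearest libraries of these groups was narrow. Both partners fell: NDUFB2-AS1 by 0.38 (SE 0.10, adjusted p = 0.01) and NDUFB2 by 0.41 (SE 0.08, adjusted p = 0.0001). Without vehicle replicate a the value of NDUFB2-AS1 was -0.24 (adjusted p = 0.38), and the call was also lost without anastrozole replicate c and with the filterByExpr filter, DESeq2 and limma-voom.

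The antisense genes that rose with anastrozole lie by DICER1, which cuts microRNA precursors, and TPT1, which encodes the translationally controlled tumour protein. DICER1-AS1 had 4.45, 3.95 and 5.37 CPM with vehicle and rose to 8.29, 6.27 and 6.46 CPM with anastrozole, 0.63 on the log2 scale (SE 0.16, adjusted p = 0.0083) while DICER1 had -0.02 (adjusted p = 0.93). The DICER1-AS1 call was kept in 3 of the 6 fits without a library and lost with DESeq2 and limma-voom. TPT1-AS1 had 3.56, 3.57 and 3.73 CPM and 5.99, 4.24 and 5.85 CPM, a log2 fold change of 0.58 (SE 0.18, adjusted p = 0.044), beside 0.06 (adjusted p = 0.58) for the far more abundant TPT1. The TPT1-AS1 call was kept in 1 of the 6 fits without a library (without anastrozole replicate b) and lost with the filterByExpr filter, the replicate block, DESeq2 and limma-voom. In DICER1-AS1 and TPT1-AS1, all anastrozole libraries were above all vehicle libraries. Of the 6 calls, 6, 3 and 3 were lost without vehicle replicate a, b or c, and 4, 1 and 2 without anastrozole replicate a, b or c. The number called by edgeR was 0 without vehicle replicate a, 3 without vehicle replicate c, 2 without anastrozole replicate a and 16 without anastrozole replicate c. DESeq2 called 1 member and limma-voom called 0. In edgeR, 45 of the 359 members had an unadjusted p under 0.05. Such counts, here and below, are not adjusted for the number of rows tested, and their share over all rows is not given.

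E2 alone gave the most calls, 11 higher and 7 lower, where 6.06% of all rows were called higher and 5.95% lower. HMMR-AS1 and RNF219-AS1 were both called higher, as were their sense genes. HMMR encodes a hyaluronan receptor that also works at the mitotic spindle. HMMR-AS1 read 20.9, 18.7 and 19.0 CPM with vehicle and 26.4, 23.0 and 25.1 CPM with E2, so that every E2 library was higher. Its log2 fold change was 0.34 (SE 0.08, adjusted p = 0.0011) and that of HMMR 0.30 (SE 0.04, adjusted p = 2.2e-10). RNF219-AS1 (now OBI1-AS1), whose sense gene encodes a ubiquitin ligase of replication origins, went from 8.65, 8.90 and 8.87 CPM to 11.9, 9.69 and 12.1 CPM. It rose by 0.34 (SE 0.12, adjusted p = 0.041) and RNF219 by 0.27 (SE 0.08, adjusted p = 0.015). The RNF219-AS1 call was kept in 1 of the 6 fits without a library (without E2 replicate b), and it was lost with a GC trend removed, with DESeq2 and with limma-voom.

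GAS5-AS1, EPB41L4A-AS1 and LRRC75A-AS1 also rose with E2. GAS5-AS1 shares 16.2% of its exon bases with GAS5, itself a noncoding host gene of small nucleolar RNAs. It had 14.5, 15.7 and 15.3 CPM with vehicle and 19.2, 17.0 and 20.1 CPM with E2, a log2 fold change of 0.31 (SE 0.10, adjusted p = 0.018), beside 0.22 (SE 0.03, adjusted p = 2.6e-08) for GAS5. The GAS5-AS1 call was kept in 2 of the 6 fits without a library and lost with a GC trend removed, DESeq2 and limma-voom. EPB41L4A-AS1, host of a small nucleolar RNA, had 27.3, 26.8 and 25.3 CPM and 31.5, 34.3 and 32.4 CPM, 0.31 higher (SE 0.07, adjusted p = 0.00034). Its sense gene EPB41L4A, a band 4.1 protein gene with which it shares 51.2% of its exon bases, had a log2 fold change of -0.18 (SE 0.07, adjusted p = 0.055). The partners thus stood on opposite sides of 0, though only the antisense gene passed. LRRC75A-AS1 was 0.12 higher (SE 0.03, adjusted p = 0.0061) with overlapping groups. Without E2 replicate c it was 0.06 higher and not called (adjusted p = 0.43), and DESeq2 and limma-voom did not call it.

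Among the genes below 10 CPM called with E2 against vehicle, FAM13A-AS1 was the one whose call held in every fit without a library, though DESeq2 and limma-voom did not call it. FAM13A encodes a GTPase activating protein. The antisense gene had 4.61, 6.16 and 5.83 CPM with vehicle and 9.86, 8.68 and 6.94 CPM with E2, a log2 fold change of 0.61 (SE 0.14, adjusted p = 0.00039). FAM13A went up with it by 0.41 (SE 0.08, adjusted p = 2.8e-05). ARHGEF26-AS1 and KLHL7-AS1 had larger fold changes at a lower level. ARHGEF26-AS1, beside a guanine exchange factor gene, had 1.37, 0.760 and 1.17 CPM with vehicle and 1.58, 2.42 and 2.01 CPM with E2 (0.89, SE 0.30, adjusted p = 0.028). KLHL7-AS1, head to head with a gene for an adaptor of a ubiquitin ligase, had 1.62, 1.75 and 2.02 CPM and 3.94, 2.72 and 2.43 CPM (0.73, SE 0.24, adjusted p = 0.022). The E2 and vehicle groups did not overlap in either. Neither sense gene was called: ARHGEF26 had 0.02 and KLHL7 0.11. Each of these calls was kept in 2 or 3 of the 6 fits without a library and lost with a GC trend removed.

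Among the genes that fell with E2, NDUFB2-AS1 had 15.9, 15.2 and 15.1 CPM, all below its vehicle libraries (-0.43, SE 0.09, adjusted p = 0.00011), and NDUFB2 fell by 0.21 (SE 0.06, adjusted p = 0.014). Without vehicle replicate a NDUFB2-AS1 had -0.29 (adjusted p = 0.063). TNRC6C-AS1 is named for TNRC6C, a protein of microRNA silencing. It read 57.7, 58.2 and 62.2 CPM with vehicle and 48.8, 48.1 and 52.3 CPM with E2, with no overlap, and fell by 0.26 (SE 0.05, adjusted p = 0.00011), beside -0.14 (adjusted p = 0.14) for TNRC6C. VPS9D1-AS1 fell by 0.26 (SE 0.09, adjusted p = 0.024) with overlapping groups, and VPS9D1 by 0.35 (SE 0.06, adjusted p = 1.1e-06). FAM83H-AS1 had the smallest adjusted p of the members in this comparison. Its libraries read 137.7, 130.0 and 142.9 CPM with vehicle and 116, 117 and 116 CPM with E2, a difference of -0.23 (SE 0.04, adjusted p = 1e-06), beside -0.33 (SE 0.04, adjusted p = 1.1e-15) for FAM83H, a gene of keratin filament organisation. The other called members changed by 0.12 to 0.24 in size on the log2 scale: JHDM1D-AS1, THAP9-AS1 and IDI2-AS1 rose, and BAIAP2-AS1, MMP24-AS1 and UGDH-AS1 fell, with overlapping groups for JHDM1D-AS1, IDI2-AS1 and UGDH-AS1. Without vehicle replicate c, MMP24-AS1 had -0.06 (adjusted p = 0.77) and IDI2-AS1 0.08 (adjusted p = 0.37), while without vehicle replicate a IDI2-AS1 had 0.21 (adjusted p = 0.00023). UGDH-AS1 had -0.07 (adjusted p = 0.29) without vehicle replicate b and -0.08 (adjusted p = 0.36) without E2 replicate b. The calls of FAM83H-AS1, TNRC6C-AS1, EPB41L4A-AS1, FAM13A-AS1 and HMMR-AS1 held in all 6 fits without a library. Of the 18 calls, 7, 6 and 8 were lost without vehicle replicate a, b or c, and 5, 7 and 10 without E2 replicate a, b or c. The number called was 10 without vehicle replicate c, 5 with DESeq2 and 4 with limma-voom.

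Anastrozole plus E2 against vehicle gave 6 higher and 5 lower members, where 2.71% of all rows were called higher and 2.33% lower. MAPT-AS1 was the one gene of this comparison whose call held in every fit without a library. Its start lies 1153 bases from that of MAPT, which encodes the microtubule protein tau and is expressed in estrogen receptor positive breast cancer. MAPT-AS1 had 2.35, 2.13 and 2.57 CPM with vehicle and 4.19, 3.69 and 4.08 CPM with the combination. Every treated library was higher, by 0.76 on the log2 scale (SE 0.20, adjusted p = 0.0063), and MAPT rose by 0.27 (SE 0.04, adjusted p = 1.4e-10). FBXL19-AS1, next to an F-box protein gene, fell from 13.5, 12.9 and 13.1 CPM to 11.5, 8.14 and 9.79 CPM (-0.42, SE 0.11, adjusted p = 0.0037), and FBXL19 fell by 0.27 (SE 0.06, adjusted p = 0.00021).

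SPAG5-AS1 and PCNA-AS1 fell with the combination while their sense genes were not called. SPAG5-AS1, beside the gene of the spindle protein astrin, had 66.3, 65.9 and 64.5 CPM with vehicle and 52.8, 58.7 and 59.2 CPM with the combination (-0.21, SE 0.05, adjusted p = 0.0027), while SPAG5 had 0.06 (adjusted p = 0.52). PCNA-AS1, named for the sliding clamp of DNA polymerase, had 75.5, 64.3 and 65.3 CPM and 55.9, 61.3 and 61.6 CPM (-0.20, SE 0.05, adjusted p = 0.0042), while PCNA had -0.10 (adjusted p = 0.13). In neither did the groups overlap. The PCNA-AS1 call was lost without vehicle replicate a (-0.12, adjusted p = 0.27) and without replicate a of the combination (-0.15, adjusted p = 0.12). DESeq2 called 0 and limma-voom 1 of the members here, and 54 had an unadjusted p under 0.05 in edgeR. Without replicate b, or without replicate c, of the combination, edgeR called 6. Of the 11 calls, 3, 3 and 6 were lost without vehicle replicate a, b or c, and 6, 5 and 5 without replicate a, b or c of the combination.

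E2 and the combination were both set against the same vehicle libraries, so that a high or low vehicle library moves both contrasts together. For the 7 members called in both (GAS5-AS1, EPB41L4A-AS1, HMMR-AS1, KLHL7-AS1 and ARHGEF26-AS1 higher, FAM83H-AS1 and TNRC6C-AS1 lower) the values of the combination are given here beside those of E2 above, and that both were called is no separate result. With the combination, HMMR-AS1 read 23.6, 23.9 and 23.6 CPM (0.28, SE 0.08, adjusted p = 0.022), EPB41L4A-AS1 30.9, 31.7 and 31.7 CPM (0.25, SE 0.07, adjusted p = 0.02) and GAS5-AS1 20.4, 17.5 and 19.7 CPM (0.34, SE 0.09, adjusted p = 0.0064). TNRC6C-AS1 fell by 0.20 (SE 0.05, adjusted p = 0.0064) and FAM83H-AS1 by 0.14 (SE 0.04, adjusted p = 0.026). KLHL7-AS1 and ARHGEF26-AS1 were 0.73 and 0.89 higher, with adjusted p = 0.038 and adjusted p = 0.046. With anastrozole alone none of the 7 passed, and the fold changes were 0.29 for HMMR-AS1 (adjusted p = 0.052), 0.76 for KLHL7-AS1 (adjusted p = 0.057), 0.25 for GAS5-AS1, 0.21 for EPB41L4A-AS1, 0.72 for ARHGEF26-AS1 and -0.13 for both FAM83H-AS1 and TNRC6C-AS1, the last 5 with adjusted p = 0.15 to 0.32. None of the 7 passed in anastrozole against E2. NDUFB2-AS1, called with anastrozole and with E2, read 19.7, 18.7 and 16.9 CPM with the combination and overlapped vehicle there (-0.17, adjusted p = 0.31).

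Where the combination was set against E2 alone, 4 members rose and 2 fell, beside 3.23% of all rows called higher and 3.51% called lower. IDI2-AS1 gave the smallest adjusted p of any member in any comparison. It read 108.0, 111 and 115 CPM with E2 and 86.5, 97.3 and 95.6 CPM with anastrozole plus E2. All libraries of the combination were lower, by 0.26 on the log2 scale (SE 0.04, adjusted p = 4.9e-08), in all 6 fits without a library and in all 9 alternatives. IDI2 itself lay at 2.60 to 4.07 CPM in these libraries and had 0.09 (SE 0.20, adjusted p = 0.88). With vehicle IDI2-AS1 was at 112.6, 97.9 and 94.3 CPM, a range that overlapped E2, and with anastrozole alone at 99.5, 104 and 89.7 CPM.

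MMP24-AS1 moved the other way, from 34.4, 34.6 and 34.4 CPM with E2 to 39.7, 42.3 and 40.4 CPM with the combination (0.24, SE 0.06, adjusted p = 0.0048), and it too passed in all 6 fits without a library. MMP24, a membrane-bound metalloproteinase gene, had 0.09 (adjusted p = 0.61). NDUFB2-AS1 was 0.26 higher with the combination than with E2 (SE 0.09, adjusted p = 0.038). MAN1B1-AS1, head to head with a mannosidase gene of the endoplasmic reticulum, had 4.89, 4.79 and 4.44 CPM with E2 and 6.36, 6.54 and 8.01 CPM with the combination (0.56, SE 0.15, adjusted p = 0.0052). OIP5-AS1 fell by 0.14 (SE 0.04, adjusted p = 0.027) from 85.4, 88.5 and 85.7 CPM to 77.8, 79.2 and 79.4 CPM. The calls of NDUFB2-AS1 and OIP5-AS1 were each kept in 1 of the 6 fits without a library and in 4 of 9 alternatives. None of the 6 sense genes was called. With a GC trend removed 1 member, IDI2-AS1, passed, and the number of called sense genes went from 44 to 3. Of the 6 calls, 2, 3 and 2 were lost without E2 replicate a, b or c, and 3, 3 and 2 without replicate a, b or c of the combination. Fitting all 12 libraries together called 3 members, DESeq2 2 and limma-voom 2.

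Anastrozole against E2 gave 3 called members, all lower with anastrozole, where 0.620% of all rows were called higher and 0.705% lower. RUSC1-AS1 had 65.7, 64.7 and 61.5 CPM with E2 against 53.2, 53.2 and 53.3 CPM with anastrozole (-0.26, SE 0.06, adjusted p = 0.0036). RUSC1 moved the opposite way, from 87.8, 83.1 and 83.0 CPM to 92.7, 95.2 and 99.0 CPM (0.18, SE 0.05, adjusted p = 0.023). This was the only pair in any comparison with both partners called in opposite directions. RARA-AS1 shares 31.1% of its exon bases with RARA, the retinoic acid receptor alpha gene, an estrogen-induced gene in breast cancer cells. It read 4.81, 3.96 and 3.61 CPM with E2 and 2.16, 2.22 and 2.53 CPM with anastrozole (-0.82, SE 0.22, adjusted p = 0.019), and RARA fell by 0.28 (SE 0.05, adjusted p = 5.3e-06). Against vehicle, the anastrozole libraries of RARA-AS1 overlapped and it was not called. IDI2-AS1 was 0.18 lower (SE 0.05, adjusted p = 0.014). In none of the 3 did the anastrozole and E2 groups overlap. All 3 calls were lost without E2 replicate b, where edgeR called 0 members, and 1 was lost without each of the other libraries in turn. With all libraries limma-voom called 0 and DESeq2 1, and 34 had an unadjusted p under 0.05 in edgeR.

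**Figure D3:**
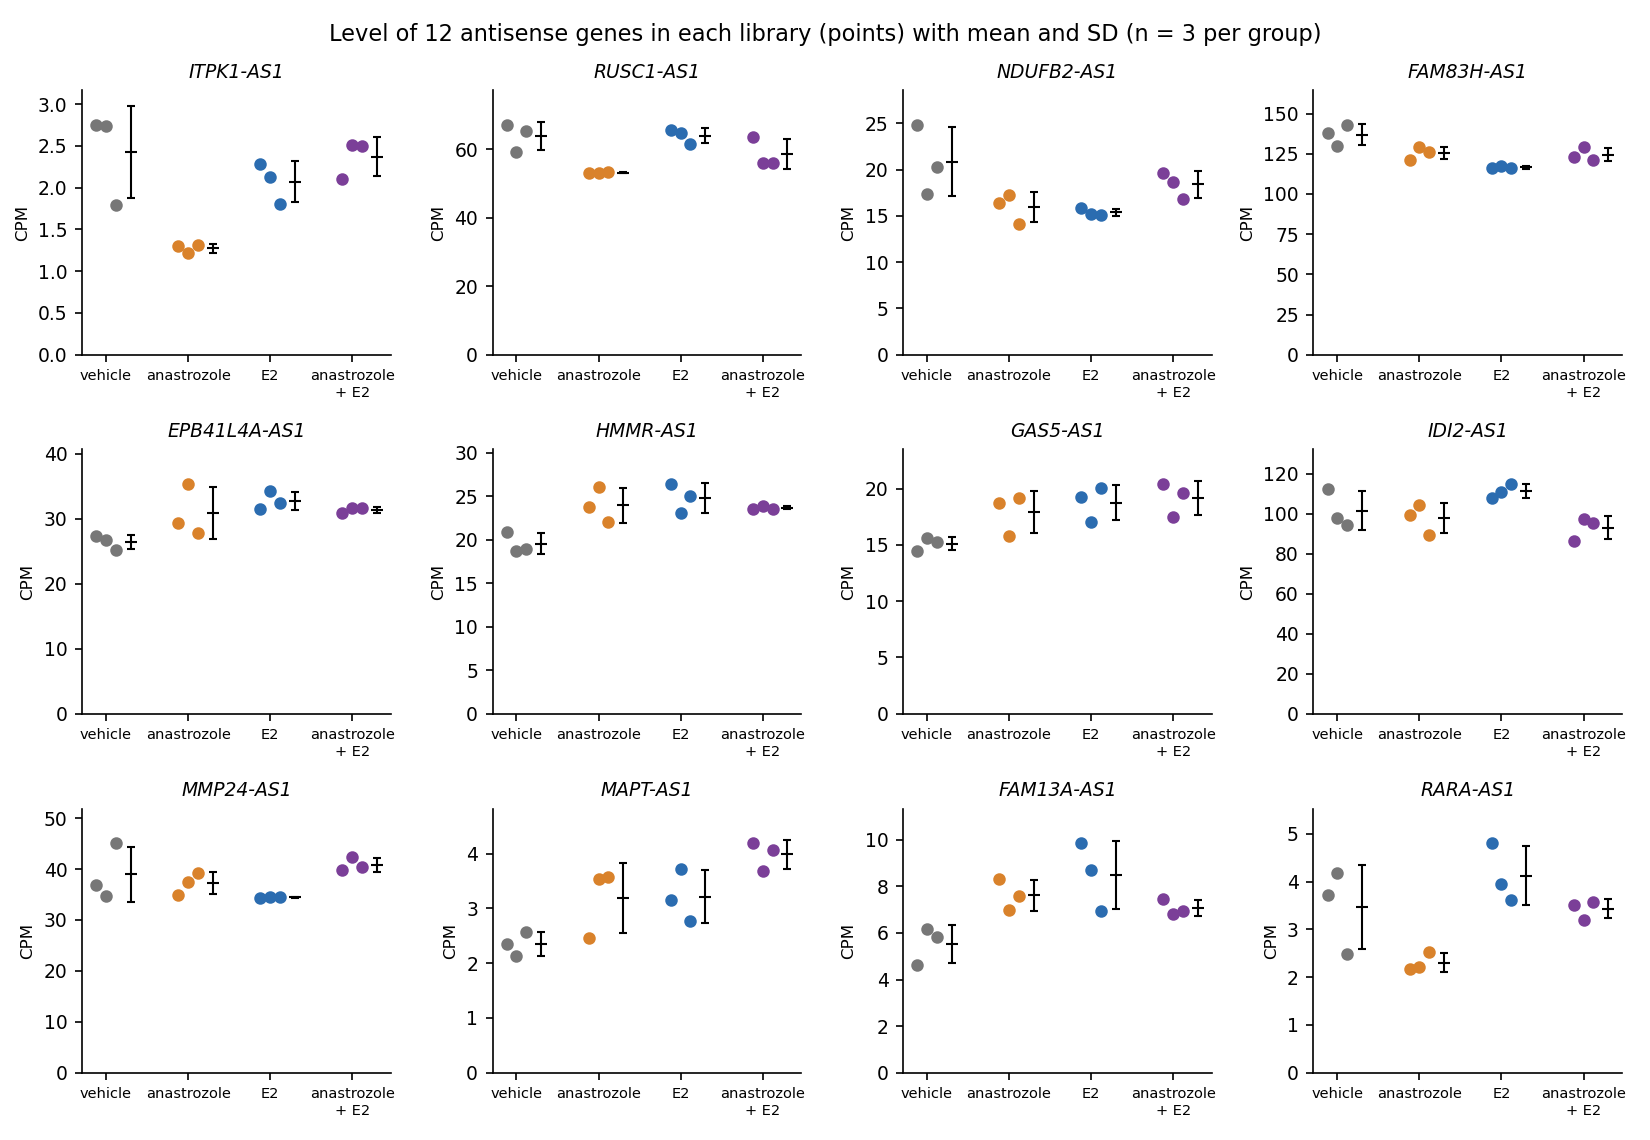
Level (CPM, linear axis from 0) of 12 antisense genes in each of the 12 libraries, by group, with the mean and SD (n = 3) beside the points. ITPK1-AS1 is lowest with anastrozole. RARA-AS1 has its lowest group mean there, but its anastrozole and vehicle libraries overlap. FAM83H-AS1 is lowest with E2 (116 to 117 CPM), and IDI2-AS1 is higher with E2 than with the combination in every library.

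Each antisense gene was then set beside its sense gene. Over the 350 pairs, the fold changes had the same sign in 202 pairs with anastrozole, 201 with E2, 197 with the combination against vehicle, 193 with the combination against E2 and 189 with anastrozole against E2, which is 54% to 57.7%. Spearman's correlation across pairs was 0.23, 0.23, 0.22, 0.21 and 0.15 in that order. Among the 107 pairs whose antisense gene reached 10 CPM, the correlation was 0.38, 0.57, 0.41, 0.38 and 0.32. The replicate spread is smaller at these levels, but its part in this was not tested. Neither was the part of exon bases shared by the partners. Pairs are not independent replicates, share libraries and vehicle or E2 controls, and have related base composition, so these values describe the pairs and carry no p. By position, the correlation with E2 was 0.29 for the 245 pairs with shared exon bases, 0.11 for the 29 overlapping pairs without them and 0.19 for the 59 head-to-head pairs. With anastrozole the values in the same order were 0.24, -0.01 and 0.33, with the combination against vehicle 0.25, 0.08 and 0.18, with the combination against E2 0.25, 0.25 and 0.07, and with anastrozole against E2 0.22, -0.11 and -0.02.

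Of the 343 sense genes, 15 were called with anastrozole, 67 with E2, 37 with the combination, 44 between combination and E2 and 13 between anastrozole and E2. These are 4.37%, 19.5%, 10.8%, 12.8% and 3.79%, beside 5.43%, 17.7%, 7.36%, 9.99% and 1.96% of all rows of at least 1 CPM. Both partners were called in 2, 7, 5, 0 and 2 pairs. The same direction was seen in all but the RUSC1 pair. In the 69 pairs whose sense gene was called with E2, the antisense fold change had the same sign in 56 and the opposite sign in 13. The same and opposite signs numbered 14 and 2 with anastrozole, 28 and 9 with the combination against vehicle, 32 and 13 with the combination against E2, and 7 and 7 with anastrozole against E2. Some strongly changed sense genes had an uncalled partner. B4GALT1, a galactosyltransferase gene, was 0.34 higher with E2 (adjusted p = 2.2e-24) and 0.35 higher with the combination (adjusted p = 7.4e-23), where B4GALT1-AS1 had 0.20 (adjusted p = 0.14) and 0.25 (adjusted p = 0.058). WT1, a zinc finger transcription factor, was 0.51 higher with E2 (adjusted p = 0.0063) and WT1-AS, at 2.67 CPM, had 0.23 (adjusted p = 0.6). FBXL19 was lower with each treatment (-0.38, -0.36 and -0.27), and FBXL19-AS1 had -0.29, -0.28 and -0.42, of which the last passed.

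**Figure D4:**
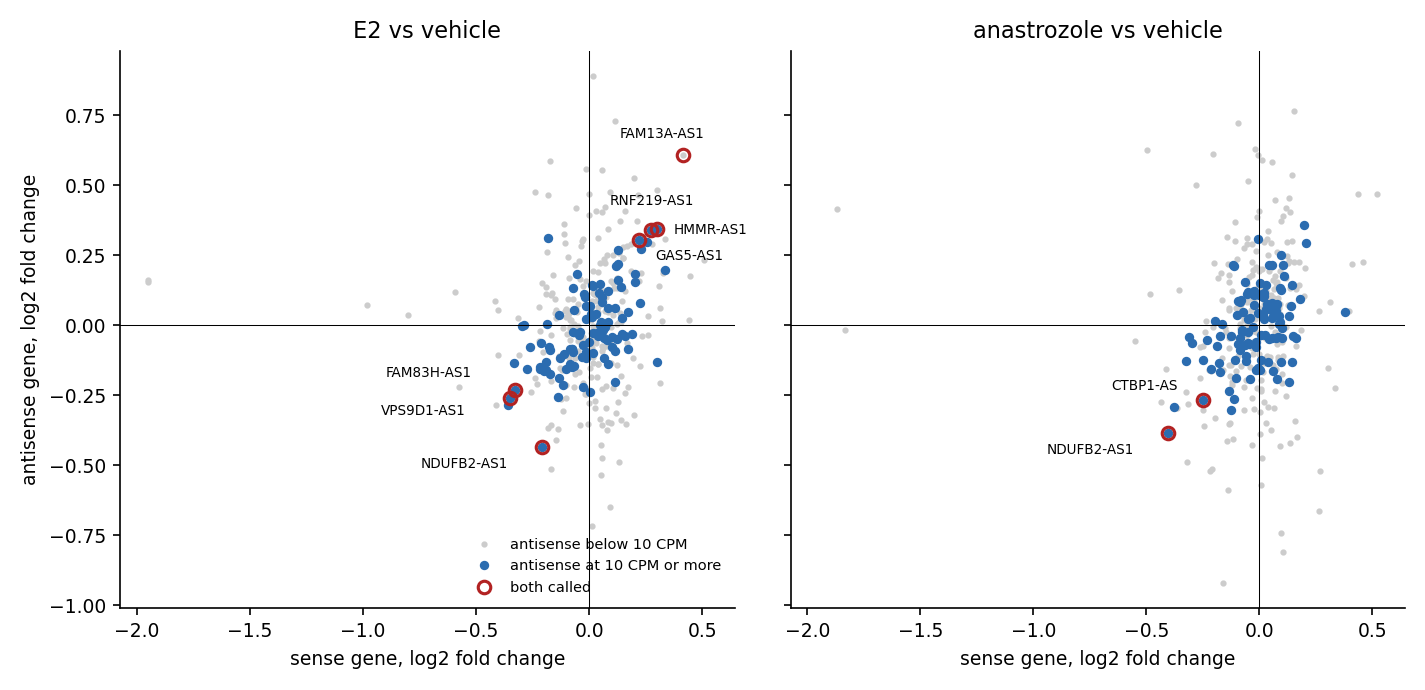
Log2 fold change of the antisense gene (vertical) against that of its sense gene (horizontal) for 350 pairs, with E2 (left) and anastrozole (right), each against the same vehicle libraries. Pairs with the antisense gene at 10 CPM or more are blue, and the 7 and 2 pairs with both partners called are ringed and named; all ringed pairs lie in the lower left or upper right quadrant.

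Base composition moved with the fold changes in part of the comparisons. Over the 343 members with a known GC content, Spearman's correlation between GC content and log2 fold change was -0.25 with anastrozole, -0.28 with E2, -0.00 with the combination against vehicle, 0.35 with the combination against E2 and 0.05 with anastrozole against E2. Of the 44 calls, 29 were kept with a GC trend removed. Those kept include RUSC1-AS1, NDUFB2-AS1, FAM83H-AS1, TNRC6C-AS1, EPB41L4A-AS1, HMMR-AS1 and FAM13A-AS1 against vehicle and IDI2-AS1 against E2. Those lost were CTBP1-AS and ITPK1-AS1 with anastrozole, GAS5-AS1, RNF219-AS1, VPS9D1-AS1, BAIAP2-AS1, THAP9-AS1, KLHL7-AS1, ARHGEF26-AS1 and MMP24-AS1 with E2, and every call of the combination against E2 other than IDI2-AS1.

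The 6 HOX members, led by HOXB-AS1 at 19.1 CPM and HOXC-AS3 at 15.5 CPM, the 28 members named for other transcription factor genes, led by GATA3-AS1, and the 2 of the major histocompatibility region, HLA-F-AS1 and ZNRD1-AS1, had 0 calls in all 5 comparisons. The other 323 members had 6, 18, 11, 6 and 3 calls, 0.929% to 5.57%, so that few or no calls among 36 members lie near that share. Of these 36 members, 1 to 4 in a comparison had an unadjusted p under 0.05 in edgeR, and DESeq2 and limma-voom called 0 in each. Of 28 often studied antisense RNAs, 23 were members and 6 of them were called at least once, beside 31 of all 359 members: OIP5-AS1, FAM83H-AS1, UGDH-AS1, LRRC75A-AS1, GAS5-AS1 and THAP9-AS1. HIF1A-AS2, at 48.9 CPM beside 192 CPM for the hypoxia factor HIF1A, had fold changes of 0.03, 0.06 and -0.03 against vehicle, and MCM3AP-AS1 at 44.6 CPM had -0.02, -0.08 and -0.03. Among the 377 antisense-named rows below 1 CPM, 273 could be tested and 0 were called by edgeR in any comparison, with 3 to 13 at an unadjusted p under 0.05. DESeq2 called 0 of them in each comparison, and limma-voom 1 with E2 and 1 with the combination against vehicle. In the whole table, too, rows below 1 CPM were seldom called by edgeR. Rows of at least 1 CPM made up 771 of the 776 calls with anastrozole, 2516 of 2537 with E2 and 1046 of 1065 with the combination. They made up 1420 of 1424 with the combination against E2 and 279 of 280 with anastrozole against E2. The 0 calls are therefore no result about antisense rows.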

How the data were processed

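RNA of 12 T47D libraries was sequenced, 3 per group. Per the labels, the reads were aligned with TopHat2 2.0.14 and Bowtie2 2.2.6 to hg19, and the authors deposited HTSeq gene counts; the annotation and the strand setting are not given in the sources used here. The labels name both polyA RNA and a total RNA library kit. The 5 summary lines of the table held 66.5% to 67.3% of all its reads and were left out of library sizes and tests. Also as shares of all reads in the table, reads in no feature were 58.6% to 59.9% and ambiguous reads 0.572% to 0.604%.

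Members were the rows whose symbol ends in -AS with a mean of at least 1 CPM on column sums. Members and lists were chosen with earlier results of these data known. Levels printed per library are CPM on TMM-scaled library sizes. Each comparison was fitted over all 21132 rows with a count in any library, using edgeR 4.0.16 (R 4.3.3; robust quasi-likelihood test, TMM, the 6 libraries of both groups, two-sided, Benjamini-Hochberg), with adjusted p under 0.05 as the threshold. Fold changes are log2, the treated or first-named group over the second. The fit was tested on simulated data, but the outcome is not reported here and no call rests on it. Named genes were ITPK1-AS1, the 10 highest members, all called members (where over 10, the 10 of largest fold change in full), often studied antisense RNAs, rows beside the minimum, and their sense genes; 1 called member and 1 immune marker are not reported here, though counts of members include the former. A sense gene is the row with the symbol before -AS. Positions come from GENCODE 44 mapped to GRCh37 (343 of 359 members matched, 70 by an older symbol) and promoters from RefSeq (GRCh38.p14). Alternatives were other scalings, a filter on low counts, all 12 libraries in 1 fit, a replicate block, a GC trend removed, DESeq2 1.42.0, limma-voom (limma 3.58.1), other minimum levels and each library left out.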

Additional observations from a re-analysis of the deposited data

How the results depend on the processing

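The number of called antisense genes with edgeR was 6 with anastrozole, 18 with E2, 11 with the combination, 6 with the combination against E2 and 3 with anastrozole against E2. With 1 library left out in turn it ranged from 0 to 16, 10 to 21, 6 to 14, 4 to 8 and 0 to 4. The number of called sense genes (15, 67, 37, 44 and 13) ranged from 5 to 40, 47 to 82, 23 to 32, 28 to 37 and 5 to 15. Libraries whose omission moved the sense count by over 1.5 times were vehicle a and c (9 and 6) and anastrozole a, b and c (5, 9 and 40) in anastrozole against vehicle, combination b (23) against vehicle, E2 c (28) in combination against E2, and E2 a, b and c (8, 5 and 6) and anastrozole b (7) in anastrozole against E2. With the DESeq2 test, 1, 5, 0, 2 and 1 members and 8, 41, 20, 24 and 4 sense genes were called in the same order, and with limma-voom 0, 4, 1, 2 and 0 members and 1, 37, 14, 14 and 3 sense genes. The filterByExpr filter gave 3 members with anastrozole against vehicle, and 1 member and 6 sense genes with anastrozole against E2. Fitting all 12 libraries together gave 12 members and 32 sense genes with anastrozole against vehicle, and 3 members and 27 sense genes with the combination against E2. Removing the GC trend gave 1 member and 3 sense genes with the combination against E2 and 23 sense genes with anastrozole against E2. The cause of these shifts was not tested.

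The labels give replicates the same letters in each group, and whether the letters pair the libraries is not known. Deviations from the group mean were correlated between libraries of the same letter across groups, with r from -0.14 to 0.31. In no comparison did all 3 letters exceed 0.1, but some letters did. With 3 libraries a group these values cannot decide whether the libraries were paired. A replicate block moved the called sense genes of anastrozole against E2 to 8, and gave 7, 16, 15, 7 and 3 members. With the GC trend removed together with the replicate block, 18 members were called with the combination against vehicle and 2 with the combination against E2, and 44, 3 and 20 sense genes with E2 against vehicle, the combination against E2 and anastrozole against E2. DESeq2 size factors, library size alone and a minimum of 0.5 or 2 CPM kept every count of members and of sense genes within 1.5 times. Of the 44 calls, 8 held in all 6 fits without a library and 5 in all 9 other alternatives, and none changed sign in any of them. The median coefficient of variation between replicates was 13.3% at 2 to 10 CPM and 22.6% at 1 to 2 CPM, and the part of sequencing depth in this was not tested.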

Other observations

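Other noncoding rows can be set beside the antisense genes as a description. Of the 126 rows named LINC with a number and a mean of at least 1 CPM, edgeR called 2 with anastrozole, 7 with E2, 6 with the combination, 3 with the combination against E2 and 0 with anastrozole against E2. These are 1.59%, 5.56%, 4.76%, 2.38% and 0%, beside 5.43%, 17.7%, 7.36%, 9.99% and 1.96% of all rows of at least 1 CPM. LINC00173 was called with each of the 3 treatments against the shared vehicle libraries. LINC00472 and LINC00950 were called with E2 and with the combination, and LINC01000 with anastrozole and with E2. Of 9 intronic transcript rows (-IT), CRHR1-IT1 was called with E2.

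Antisense genes that share a sense gene did not always carry the same call. CTBP1-AS fell with anastrozole, and CTBP1-AS2, at 31.7 CPM, was not called there. EPB41L4A-AS1 rose with E2 at 30.4 CPM, and EPB41L4A-AS2, at 1.65 CPM, was not called. The differences between such neighbours were not tested.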
